A study of Mus musculus with 15 samples.

Results

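The data describe 10 mouse genes of arginine and polyamine metabolism in muscle satellite cells: Arg2, Ass1, Asl, Ddah1, Ddah2, Oat, Odc1, Srm, Sms and Sat1. They were chosen by symbol, with a very large rise of Arg2 and a large fall of Ass1 against the solvent control already known, so their values against that control are given as a description without a test. All 10 have a row among the 46078 genes of the batch 1 count table and among the 13063 named genes of the batch 2 count table. Messenger RNA was measured by RNA sequencing in 15 libraries of satellite cells from hindlimb muscle, the resident stem cells of skeletal muscle, kept in F10 medium with 10% horse serum. Batch 1 held 3 libraries with the solvent dimethyl sulfoxide (DMSO) and 3 with 0.05 mM adenosine. Batch 2 held 3 libraries with DMSO, 3 with 0.1 mM adenosine and 3 with 0.25 mM adenosine monophosphate (AMP), which is adenosine carrying a phosphate group. Exposure lasted 24 hours in each group, and C57BL/6J is the strain given for batch 2. The labels state no age, nor whether each library had its own animal or culture, so the spread between the 3 libraries, and every p-value built on it, may be technical.

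Arginine is made from citrulline and aspartate and is consumed by arginases, nitric oxide synthases, creatine synthesis and protein methylation. Arginase releases ornithine, which is passed either to proline and glutamate or to the polyamines putrescine, spermidine and spermine, small cations that bind RNA and are needed for cell growth. Polyamine content is held in range by antizymes that destroy ornithine decarboxylase and by acetylation that marks spermidine and spermine for export or oxidation.

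Sequence before the transcription start was read for the members with a RefSeq promoter entry (build GRCm38.p6), which were 7 of 10. Arg2, Asl and Srm have none. The windows of the 3 of these members whose levels stood furthest from DMSO are shown, 5′ to 3′ in the sense of the gene, with matches to the searched motifs in capitals.
Ass1, chr2:31470020-31470206, plus strand: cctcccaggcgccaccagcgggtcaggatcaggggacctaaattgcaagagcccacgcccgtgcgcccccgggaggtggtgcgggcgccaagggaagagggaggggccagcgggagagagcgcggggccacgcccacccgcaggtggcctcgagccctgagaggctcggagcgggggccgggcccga
Ddah2, chr17:35058785-35059034, plus strand: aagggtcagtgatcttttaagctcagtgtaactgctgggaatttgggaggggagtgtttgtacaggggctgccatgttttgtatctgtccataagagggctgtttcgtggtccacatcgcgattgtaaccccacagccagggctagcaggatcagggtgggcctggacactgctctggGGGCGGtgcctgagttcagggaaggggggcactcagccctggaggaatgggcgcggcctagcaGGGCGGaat
Sat1, chrX:155216450-155216699, minus strand: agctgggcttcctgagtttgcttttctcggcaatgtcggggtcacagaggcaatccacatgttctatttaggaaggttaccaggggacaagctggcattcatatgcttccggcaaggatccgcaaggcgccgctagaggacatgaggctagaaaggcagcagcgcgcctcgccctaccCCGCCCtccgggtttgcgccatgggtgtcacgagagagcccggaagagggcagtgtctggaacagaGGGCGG
The Ass1 stretch ends after 187 bases, because the last 63 of its 250 bases lie inside the gene as annotated in batch 1. Each window of 250 bases was searched on both strands for the E-box CACGTG, the cAMP response element TGACGTCA, the C/EBP-ATF response element TGATGNAA, the antioxidant response element core TGACNNNGC and the GC box GGGCGG. No window of the 7 members held the cAMP, C/EBP-ATF or antioxidant motif, which occurred in 1.55%, 3.45% and 10.2% of the 32851 promoters searched. Ddah2 held GC boxes at 72 and 9 bases before the start (positions -72 and -9) and Sat1 at -72 and -6, a motif found in 32.7% of promoters. Ass1 had a GC box at -63 and an E-box at -36, both in the stretch not printed, and 6.02% of promoters held an E-box. These are matches of letters and no measured binding.

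Total counts were 14683346 to 20799588 per library in batch 1 and 11107450 to 14201933 in batch 2. The most abundant gene, CT010467.1, took 7.87 to 9.37% of the counts with DMSO and 3.7 to 6.08% with adenosine in batch 1. In batch 2 it took 10.6 to 14.8% over all libraries. The 8 satellite cell and myogenic markers were all measured, and their summed level was 7084 to 7503 CPM (counts relative to the library total, with totals scaled by the trimmed mean of M-values, TMM) with DMSO and 3989 to 4899 with adenosine in batch 1. In batch 2 it was 6064 to 6871 with DMSO, 3020 to 3433 with adenosine and 3144 to 4077 with AMP. Of the 8 markers 1 rose and 6 fell in batch 1, 2 rose and 6 fell with adenosine in batch 2, and 2 rose and 5 fell with AMP. Over all genes tested, 19.6% rose and 19.5% fell in batch 1, 34.9% and 34.5% with adenosine in batch 2, and 33.7% and 31.8% with AMP. Myod1 went from 2928 ± 184 to 1093 ± 218 CPM (SD, n = 3) with adenosine in batch 1. In batch 2 Myod1 went from 1749 ± 223 CPM with DMSO to 662 ± 31 with adenosine and 840 ± 119 with AMP. Des, Itga7, Vcam1, Cdh15 and Myf5 also had a lower mean than DMSO in every treated group. Pax7, the transcription factor that marks satellite cells, was detected in every library and rose in batch 2, by 0.35 on the log2 scale with adenosine (edgeR adjusted p = 0.00292) and by 0.62 with AMP (adjusted p = 2.5e-05), while its -0.16 in batch 1 did not pass. Sdc4 rose by 0.53 in batch 1, by 0.28 with adenosine in batch 2 and by 0.21 with AMP, the last a call kept in 1 of 6 fits that left out a library. Of 8 leukocyte markers, Tyrobp, C1qa, Cd52 and Cd3e were at 0 in all 6 libraries of batch 1. The summed level of the list there was 0.14 to 0.605 CPM with DMSO and 0.576 to 3.09 with adenosine. Ptprc had 0, 0 and 1 reads with DMSO and 18, 3 and 7 with adenosine, and Itgam 4, 2 and 8 and then 27, 3 and 2. Csf1r and Adgre1 had 0 reads with DMSO there, and 1, 3 and 5 and 2, 1 and 0 with adenosine. None of the list could be tested in batch 1. Csf1r, the leukocyte marker with a row in batch 2, reached at most 2.76 CPM and rose over its DMSO level of 0.173 ± 0.0684 (SD, n = 3) with adenosine (edgeR adjusted p = 0.000157) and AMP (adjusted p = 4.48e-05). The sums of 6 endothelial markers were 5.42 to 8.01 CPM with DMSO and 17.2 to 23 with adenosine in batch 1, mostly from Tek, and those of 6 fibro-adipogenic markers, mostly Cd34, were 251 to 319 and 225 to 235. In batch 1 no endothelial marker other than Tek exceeded 2 CPM in a library. Beside Cd34, Dcn reached at most 4.32 CPM there and the other fibro-adipogenic markers at most 1.21. Each sum thus follows a single gene and gives no level of a cell type. In batch 2, where 2 markers of each list have a row, the endothelial sums were 2.32 to 6.04 CPM with DMSO, 8.23 to 9.94 with adenosine and 8.9 to 11.4 with AMP, and the fibro-adipogenic sums 289 to 373, 205 to 220 and 297 to 365. Tek rose in all 3 comparisons, by 1.79, 1.16 and 1.30 on the log2 scale (edgeR adjusted p = 0.000164, 0.00212 and 0.000987). Cd34 fell by 0.65 with adenosine in batch 2 (adjusted p = 2.01e-05). Dcn rose in batch 2 by 1.72 with adenosine (adjusted p = 0.0252) and 1.62 with AMP (adjusted p = 0.0374), calls lost without DMSO replicate 1; the adenosine call was also lost without adenosine replicate 2, and the AMP call without AMP replicate 3. The part of these shifts in the results below was not tested. In bulk RNA, fewer cells with a transcript and less transcript per cell cannot be told apart.

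Per transcript length, Srm was the most abundant of the 10 genes with DMSO and Arg2 the least. The deposited FPKM (fragments per kilobase of transcript, scaled to library size) of Srm, spermidine synthase, was 412 ± 44.1 (SD, n = 3) with DMSO in batch 1 and 308 ± 7.86 in batch 2. Behind it came Odc1, Ass1, Oat, Ddah2 and Sat1 in the same order in both batches, each with no overlap of its libraries with the next, while Sms and Ddah1 overlapped. Arg2 stood at 0.355 ± 0.208 FPKM with DMSO in batch 1 and 0.243 ± 0.0736 in batch 2.

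With nucleoside or nucleotide the order changed mainly through Arg2, Ass1, Ddah2 and Sat1. Arg2 ranked 5 of 10 with adenosine in both batches, at 43.6 ± 19.1 and 31.8 ± 6.98 FPKM, and 7 of 10 with AMP at 19.3 ± 5.4. Ass1 went from rank 3 with DMSO to rank 6 with 0.05 mM adenosine, at 11.9 ± 2.74 FPKM, where its libraries overlapped those of Ddah1. Sat1 ranked 3 in both treated groups of batch 2, at 88.4 ± 6.57 FPKM with adenosine and 71.8 ± 6.65 with AMP, above Oat with no overlap. Srm and Odc1 stayed the top pair in every group, and their libraries overlapped with 0.1 mM adenosine and with AMP.

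**Figure D1:**
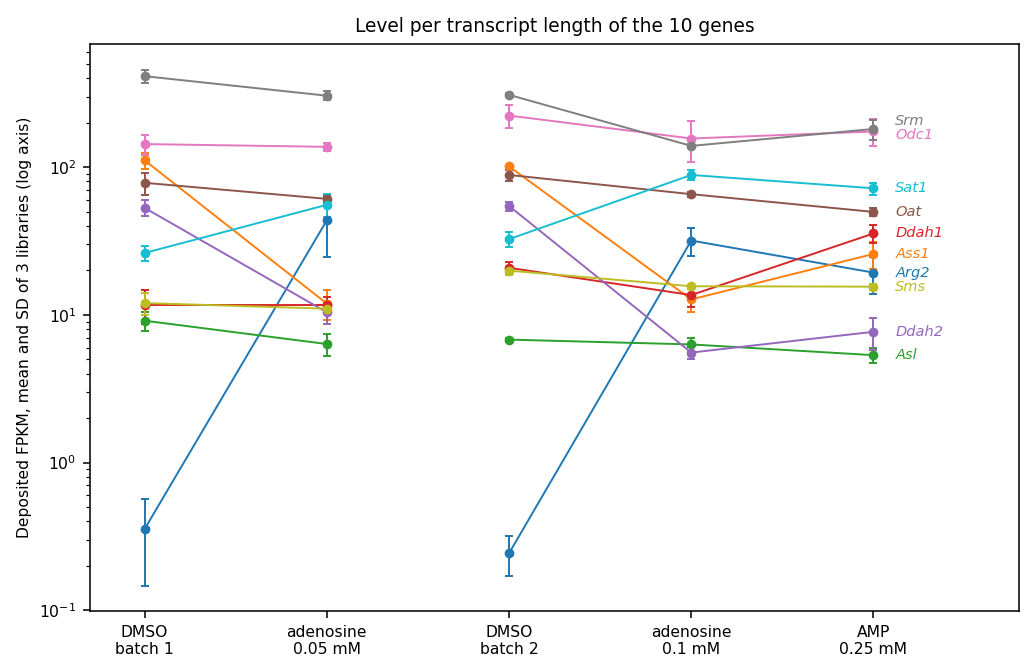
Deposited FPKM (log axis) of the 10 genes in the 5 groups, as the mean of 3 libraries with SD bars; lines join groups of 1 batch. Arg2 goes from below 1 FPKM with DMSO to between 19.3 and 43.6 in the treated groups, while Ass1 and Ddah2 drop through the order.

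Arg2 encodes the mitochondrial arginase, which splits arginine into ornithine and urea (GRCm38 chromosome 12, 79130777 to 79156301, plus strand). In batch 1 its TMM-scaled CPM were 0.511, 0.211 and 0.807 in the DMSO libraries and 42.9, 51.3 and 95.4 with adenosine. In batch 2 they were 0.473, 0.302 and 0.274 with DMSO, 50.7, 34 and 52.1 with adenosine and 27.2, 20.5 and 35.9 with AMP. No treated library came near a DMSO library, and the DMSO values rest on 3 to 12 reads each. The log2 fold change was 6.92 ± 0.41 (SE) in batch 1, 6.95 ± 0.33 with adenosine in batch 2 and 6.25 ± 0.35 with AMP. As a ratio of summed reads, corrected for library size, the adenosine group of batch 1 had 125 times the DMSO level, with an exact 95% counting interval of 84.8 to 194 from 3288 and 25 reads. In batch 2 the ratios were 126 (72.1 to 245) with adenosine and 78.7 (44.8 to 153) with AMP, both against 12 DMSO reads, and these intervals cover counting error only.

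Exons of Arg2 share 285 bases, 20% of their length, with exons of Vti1b, a vesicle fusion gene. The counting is not stated to use strand, so reads in the shared bases cannot be told apart. Vti1b was at 73.5 ± 7.02 CPM (SD, n = 3) with DMSO and 69.5 ± 3.8 with adenosine in batch 1, a difference that did not pass the test (log2 -0.08, edgeR quasi-likelihood adjusted p = 0.653). In batch 2 Vti1b was at 50.3 ± 3.14 CPM with DMSO, 47.8 ± 1.7 with adenosine (adjusted p = 0.486) and 43 ± 2.52 with AMP, where it fell by 0.23 on the log2 scale (adjusted p = 0.0387). Its level thus differed by far less than that of Arg2.

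Ass1 and Asl encode the enzymes that rebuild arginine: argininosuccinate synthase joins citrulline to aspartate, and argininosuccinate lyase splits the product into arginine and fumarate. Ass1 (chromosome 2, 31470207 to 31520672, plus strand) had 290, 288 and 230 CPM with DMSO in batch 1 and 23.5, 36.4 and 27.4 with adenosine. In batch 2 the DMSO libraries had 251, 247 and 245 CPM, adenosine 27.2, 36.9 and 28.3, and AMP 58.2, 77.5 and 53.1. All treated libraries lay far below all DMSO libraries, and AMP lay between DMSO and adenosine with no overlap with either. The log2 differences from DMSO were -3.21 ± 0.17, -3.0 ± 0.13 and -1.97 ± 0.13 for adenosine in batch 1, adenosine in batch 2 and AMP, which is 9.25-, 8.02- and 3.93-fold lower.

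Asl (chromosome 5, 130011258 to 130029247, minus strand) moved little beside Ass1. It had 36.9, 49.5 and 46.6 CPM with DMSO and 36.9, 29.6 and 26.6 with adenosine in batch 1, where 1 library of each group had almost the same level. Batch 2 gave 32.8, 33.8 and 32.8 CPM with DMSO, 27, 33.4 and 31.3 with adenosine and 28.2, 22.8 and 27.2 with AMP. Its log2 difference from DMSO was -0.52 ± 0.17, -0.12 ± 0.12 and -0.35 ± 0.12 in the same order of comparisons, and that with adenosine in batch 2 is 0.20 when libraries are scaled by their totals. Adenosine overlapped DMSO in batch 2, and AMP lay below it.

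**Figure D2:**
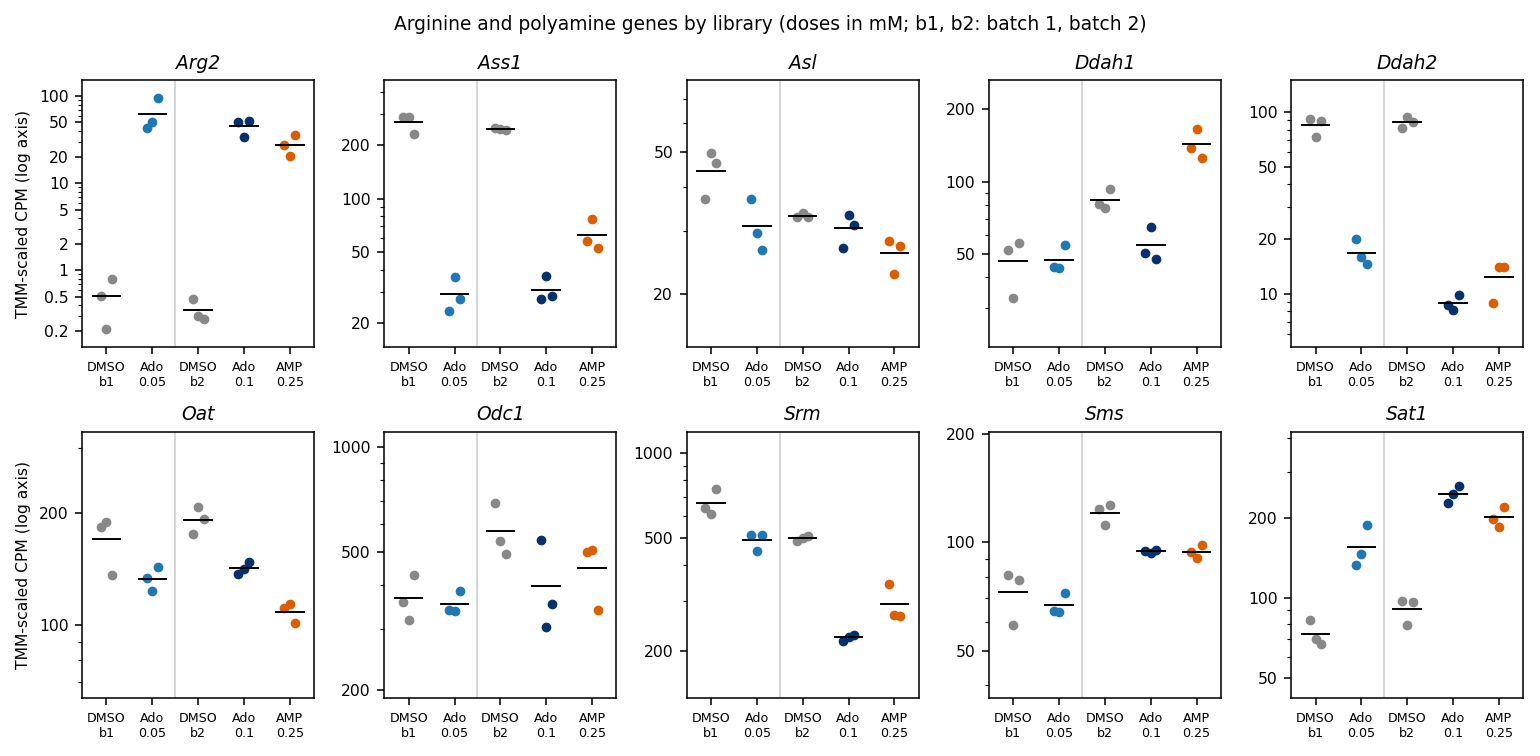
TMM-scaled CPM (log axis, each panel with its own range) of the 10 genes, 1 point per library and a bar at the group mean, for DMSO and 0.05 mM adenosine in batch 1 and DMSO, 0.1 mM adenosine and 0.25 mM AMP in batch 2. Arg2 and Sat1 lie above DMSO and Ass1 and Ddah2 below it in every treated library, while Ddah1 lies above DMSO with AMP and below it with adenosine in batch 2.

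Ddah1 and Ddah2 belong to the dimethylarginine dimethylaminohydrolase family, known for degrading asymmetric dimethylarginine, a product of methylated proteins that inhibits nitric oxide synthases. Ddah2 (chromosome 17, 35059035 to 35062095, plus strand) had 91.7, 72.7 and 89.8 CPM with DMSO and 20, 15.9 and 14.6 with adenosine in batch 1. In batch 2 it had 81.7, 93.5 and 88 CPM with DMSO, 8.67, 8.16 and 9.83 with adenosine and 8.89, 14.1 and 14.1 with AMP. Every treated library was below every DMSO library, with log2 differences of -2.33 ± 0.17, -3.30 ± 0.15 and -2.82 ± 0.15, or 5.04-, 9.87- and 7.06-fold lower.

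Ddah1 (chromosome 3, 145758675 to 145894277, plus strand) had another pattern than Ddah2. It had 51.9, 32.9 and 55.7 CPM with DMSO and 44.2, 43.7 and 54.4 with adenosine in batch 1, groups that overlapped (log2 0.02 ± 0.19). Its batch 2 values were 80.7, 77.5 and 92.9 CPM with DMSO, 50.6, 64.9 and 47.7 with adenosine and 138, 165 and 126 with AMP. Here adenosine lay below DMSO (log2 -0.62 ± 0.12) and AMP above it (0.77 ± 0.12), with no overlap among the 3 groups.

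Ornithine has its exits through Oat and Odc1, among others. Oat, ornithine aminotransferase (chromosome 7, 132557475 to 132576398, minus strand), which feeds proline and glutamate, had 184, 189 and 136 CPM with DMSO and 134, 123 and 143 with adenosine in batch 1. Batch 2 gave 176, 208 and 193 CPM with DMSO, 137, 141 and 148 with adenosine and 111, 114 and 101 with AMP. The groups overlapped in batch 1 (log2 -0.35 ± 0.14) and not in batch 2, where adenosine differed from DMSO by -0.44 ± 0.08 and AMP by -0.83 ± 0.08.

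Odc1, ornithine decarboxylase (chromosome 12, 17544873 to 17551502, plus strand), makes putrescine and commits ornithine to polyamines. It had 357, 317 and 429 CPM with DMSO and 339, 338 and 384 with adenosine in batch 1, a log2 difference of -0.06 ± 0.13 that is 0.14 under scaling by library totals. The batch 2 libraries had 690, 537 and 491 CPM with DMSO, 539, 303 and 354 with adenosine and 500, 505 and 340 with AMP. Treated and DMSO libraries overlapped in all 3 comparisons, and the batch 2 log2 differences were -0.53 ± 0.19 with adenosine and -0.36 ± 0.19 with AMP.

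Srm and Sms, the spermidine and spermine synthases, add aminopropyl groups to putrescine and then to spermidine. Srm (chromosome 4, 148591503 to 148594993, plus strand) had 637, 609 and 742 CPM with DMSO and 514, 451 and 514 with adenosine in batch 1. Batch 2 gave 486, 498 and 509 CPM with DMSO, 217, 223 and 228 with adenosine and 345, 267 and 266 with AMP. The groups did not overlap in any comparison, and the log2 differences from DMSO were -0.43 ± 0.12, -1.16 ± 0.09 and -0.77 ± 0.09.

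Sms (chromosome X, 157443855 to 157492287, minus strand) differed less. Its CPM were 81.1, 58.9 and 78.6 with DMSO and 64.5, 64.1 and 72.3 with adenosine in batch 1, a log2 difference of -0.12 ± 0.15 that is 0.07 under scaling by library totals. In batch 2 they were 124, 112 and 127 with DMSO, 94.8, 93.2 and 95.4 with adenosine and 93.8, 90.4 and 98.3 with AMP. Both treated groups of batch 2 lay below DMSO with log2 differences of -0.36 ± 0.07, and they overlapped each other.

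Sat1 encodes spermidine/spermine N-acetyltransferase, the first step of polyamine breakdown and export (chromosome X, 155213132 to 155216449, minus strand). It had 82.8, 70.1 and 67 CPM with DMSO and 133, 147 and 188 with adenosine in batch 1. Its batch 2 values were 97.3, 78.9 and 96.6 CPM with DMSO, 229, 246 and 265 with adenosine and 198, 185 and 221 with AMP. Every treated library was above every DMSO library of its batch, with log2 differences of 1.09 ± 0.15, 1.44 ± 0.09 and 1.15 ± 0.09, or 2.13-, 2.71- and 2.21-fold higher.

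Set against all genes, these counts are given as a description, since the choice of the 10 used these comparisons. In batch 1, 2 of the 10 passed an adjusted p under 0.05 as higher and 4 as lower, beside 19.6% higher and 19.5% lower of all 13842 genes tested, and 6 had groups without overlap beside 51.4% of all genes. With adenosine in batch 2, 2 were higher and 7 lower, beside 34.9% and 34.5% of 13063 genes, and 8 did not overlap beside 73.6%. With AMP, 3 were higher and 6 lower, beside 33.7% and 31.8%, and 9 did not overlap beside 70.5%. The median log2 difference of the 10 was -0.24, -0.48 and -0.36, beside 0.03, 0.01 and 0.01 over all genes tested. Adenosine and AMP of batch 2 share their DMSO libraries. Scaling by library totals in place of TMM moved the median over all genes to 0.22, 0.32 and 0.28, and the share of called genes that were higher from 50.1 to 67.2%, 50.3 to 68.7% and 51.4 to 69.9%. Under that scaling 4, 6 and 7 of the 10 were called. Over all genes it called 5967 of 13842 in batch 1, and 9235 and 8642 of 13063 in batch 2. Among the 10, the calls that ended were those of Asl and Srm in batch 1, Oat, Odc1 and Sms with adenosine in batch 2, and Asl and Sms with AMP.

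**Figure D3:**
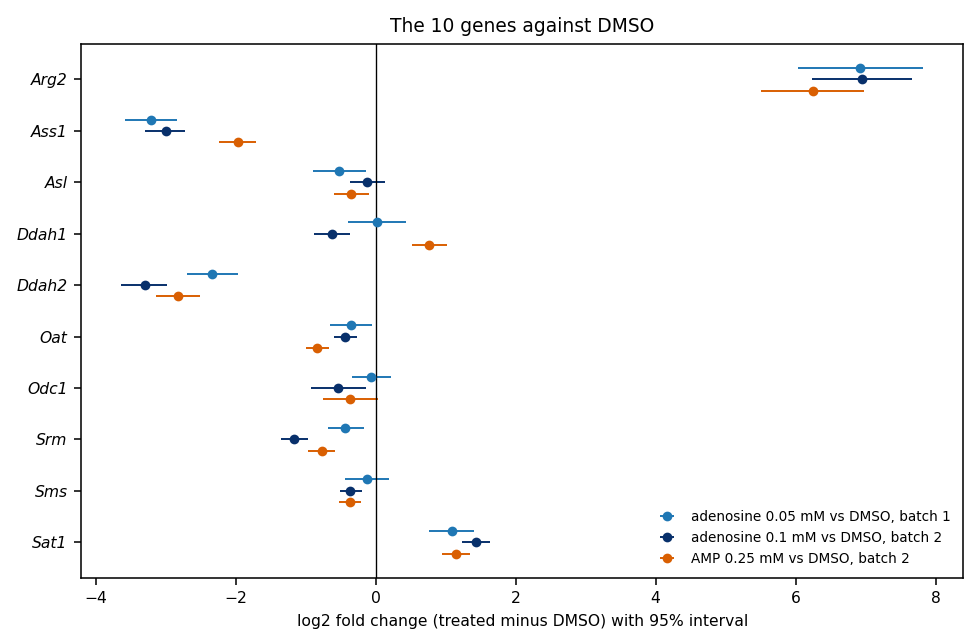
Log2 fold change of each of the 10 genes against the DMSO libraries of the same batch, with 95% intervals from the edgeR fit, for 0.05 mM adenosine (batch 1), 0.1 mM adenosine and 0.25 mM AMP (batch 2). Arg2 lies between 6.25 and 6.95, Sat1 between 1.09 and 1.44, and Ass1 and Ddah2 between -1.97 and -3.30.

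AMP was next compared with adenosine directly within batch 2, a difference that the choice of the genes did not name. The adenosine and AMP libraries also enter the differences from DMSO known at the choice. The tests of Arg2 and Ass1, and counts that include them, are thus not independent of that choice. Ddah1, Ass1 and Srm were higher with AMP, and Arg2 and Oat lower. The doses, 0.25 and 0.1 mM, differ along with the compound, and compound and dose cannot be told apart. Of the 10 genes 3 were higher and 2 lower, beside 4.52% higher and 2.00% lower of the 13063 genes tested, and 5 had groups without overlap beside 23.6%.

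Ddah1 rose 2.63-fold with AMP over adenosine (log2 1.39, 95% interval 1.14 to 1.65, edgeR adjusted p = 1.89e-05). Ass1 rose 2.04-fold (log2 1.03, 0.75 to 1.31, adjusted p = 0.000239). Both were higher in all 3 AMP libraries than in any adenosine library. Srm rose 1.31-fold (log2 0.39, 0.20 to 0.58, adjusted p = 0.014), but the call was lost without AMP replicate 1, the highest of the AMP libraries (log2 0.26, adjusted p = 0.0544). Oat fell by 0.39 on the log2 scale (interval -0.55 to -0.22, adjusted p = 0.00689) with no overlap of the groups.

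Arg2 fell by 0.71 on the log2 scale with AMP against adenosine (interval -1.10 to -0.31, edgeR adjusted p = 0.0322), and the groups overlapped in 1 library of each. The call was lost when any of adenosine replicates 1 and 3 and AMP replicates 1 and 2 was left out, with adjusted p over all left-out libraries from 0.00705 to 0.165 and log2 differences from -0.93 to -0.53. For the other 5 genes the difference did not pass the test. Ddah2 differed by 0.48 (0.14 to 0.83, adjusted p = 0.0954) and Sat1 by -0.29 (-0.48 to -0.10, adjusted p = 0.0733), with intervals that leave out 0 before adjustment. Asl differed by -0.23 (-0.48 to 0.02), Odc1 by 0.17 (-0.22 to 0.56) and Sms by -0.0042 (-0.16 to 0.15), the narrowest interval of the 10.

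The adenosine effect was then compared between batch 2 at 0.1 mM and batch 1 at 0.05 mM, as the interaction term of a fit of all 15 libraries. Batch and dose cannot be told apart here. The tests of Arg2 and Ass1 again share libraries with the differences known at the choice, and are not independent of it. Ddah2 and Srm had a larger fall in batch 2, and no gene of the 10 had a larger rise, beside 5.66% lower and 6.29% higher of the 13049 genes tested. For Ddah2 the effect in batch 2 was lower by 0.97 on the log2 scale (interval -1.44 to -0.49, edgeR adjusted p = 0.0108), and for Srm by 0.73 (-1.03 to -0.43, adjusted p = 0.00419). Both calls were kept when each of the 12 libraries of these 4 groups was left out in turn.

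For Arg2 the interaction was 0.05 with a wide interval, -1.45 to 1.55, so an effect up to 2.93-fold larger in batch 2 lies within it, at 3 to 12 DMSO reads per library. Ass1 differed by 0.21 (-0.25 to 0.66). Ddah1 differed by -0.63 (-1.11 to -0.15) and missed the threshold (adjusted p = 0.0808). The remaining 5, Asl, Oat, Odc1, Sms and Sat1, had differences from -0.46 to 0.40 and adjusted p from 0.18 to 0.756.

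**Figure D4:**
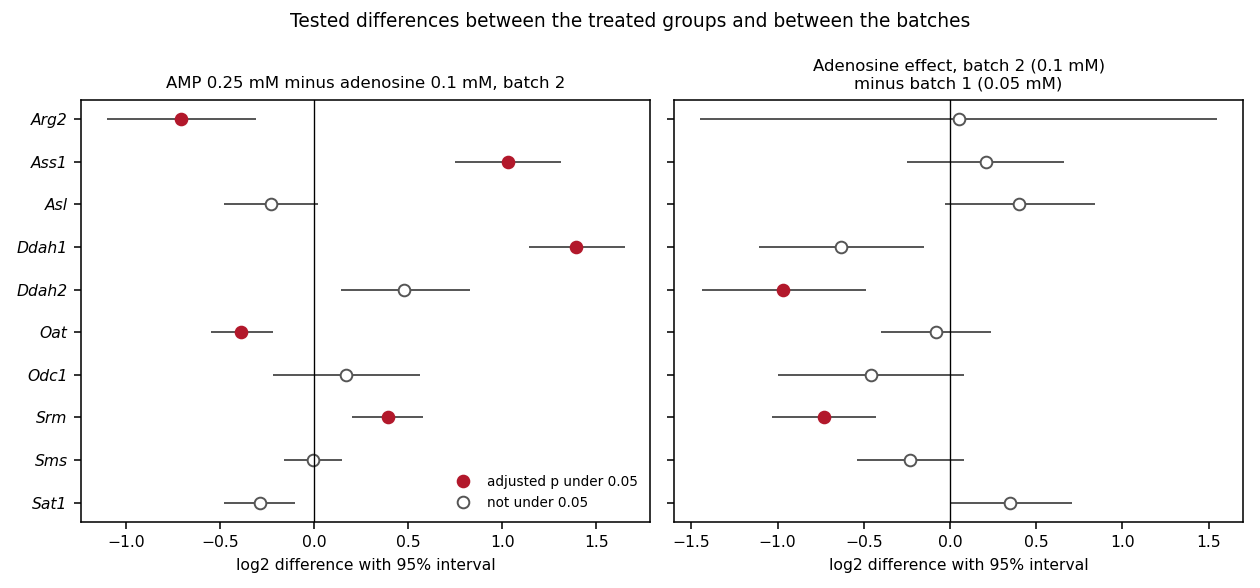
Log2 differences with 95% intervals of the 10 genes, AMP minus adenosine in batch 2 (left) and the adenosine effect of batch 2 minus that of batch 1 (right), with filled points for adjusted p under 0.05. On the left Ddah1 (1.39) and Ass1 (1.03) stand highest and Arg2 (-0.71) lowest, and on the right Ddah2 (-0.97) and Srm (-0.73) are the filled points.

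Around the 10 genes, 54 other genes of the pathway were followed in 8 lists that hold no member, and these were tested against DMSO. The lists, too, were chosen with earlier results of these data known. Tests of their genes here and below are thus not independent of that choice. In batch 1, 46 could be tested, of which 7 rose and 14 fell. With adenosine in batch 2, 9 of 44 rose and 25 fell, and with AMP 11 rose and 24 fell. Over all genes tested, 19.6% rose and 19.5% fell in batch 1, 34.9% and 34.5% with adenosine in batch 2, and 33.7% and 31.8% with AMP. The median log2 difference of the pathway genes was -0.09, -0.31 and -0.35, beside 0.03, 0.01 and 0.01 over all genes. Under scaling by library totals, 10 rose and 13 fell in batch 1, 15 rose and 15 fell with adenosine in batch 2, and 13 rose and 16 fell with AMP. Over all genes, that scaling called 4012 higher and 1955 lower of 13842 in batch 1. In batch 2 it called 6344 higher and 2891 lower of 13063 with adenosine, and 6037 and 2605 with AMP. Among the genes named below, that scaling ended the calls of Mat2a in batch 1, of Pycrl, Amd1, Oaz1, Dhps, Eif5a2, Enoph1 and Adi1 with adenosine in batch 2, and of Slc7a2, Gamt, Amd2, Oaz1, Dhps and Eif5a2 with AMP. Gatm had the largest difference of all.

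Of the urea cycle, nitric oxide and creatine list, Gatm, which makes the creatine precursor guanidinoacetate from arginine, fell from 45.4 ± 14.1 to 4.37 ± 1.46 CPM with adenosine in batch 1 (SD, n = 3, 10.4-fold, edgeR adjusted p = 4.31e-06). In batch 2 it fell from 69.7 ± 7.5 to 5.84 ± 1.73 CPM with adenosine (11.8-fold, adjusted p = 1.34e-10) and to 7.61 ± 0.911 with AMP (9.14-fold, adjusted p = 4.88e-10). Gamt, the next step to creatine, passed the test with AMP only (log2 -1.20, adjusted p = 0.0238), a call lost without DMSO replicate 3, AMP replicate 1 or AMP replicate 3. The list otherwise held genes of low level. Of its 10 genes 5 could be tested in batch 1, with 0 rising and 1 falling, and 3 in batch 2, where 1 rose and 1 fell with adenosine and 1 rose and 2 fell with AMP.

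Arg1, the cytosolic arginase of the liver urea cycle, was at 0.612 ± 0.412 FPKM with adenosine in batch 1 and 0.984 ± 0.135 in batch 2 (SD, n = 3), below every treated Arg2 library. It had 6, 14 and 10 reads with DMSO and 15, 26 and 5 with adenosine in batch 1, and did not pass the test. In batch 2 it rose from 0.401 ± 0.26 to 1.46 ± 0.199 CPM with adenosine (SD, n = 3, edgeR adjusted p = 0.00764) and to 1.45 ± 0.686 with AMP (adjusted p = 0.00921), where the call was lost without AMP replicate 1 (adjusted p = 0.0504). The nitric oxide synthase genes were scarce in batch 1, at 0.496 to 3.23 CPM for Nos1 and 1.07 to 3.11 for Nos3, with overlapping groups. Nos2 had 0 reads in the DMSO libraries and 7, 2 and 9 with adenosine, too few to be tested.

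Of the arginine and ornithine transport genes, Slc7a1, Slc7a2 and Slc25a15 fell and Slc25a29 rose in all 3 comparisons. Slc7a1, a cationic amino acid carrier of the plasma membrane, fell from 114 ± 3.28 to 78.3 ± 8.13 CPM in batch 1 (edgeR adjusted p = 0.00355), and in batch 2 from 186 ± 11.5 to 86.9 ± 8.28 with adenosine and 124 ± 19.4 with AMP (SD, n = 3). Slc7a2, of the same family, fell by 1.09, 1.06 and 0.64 on the log2 scale in the 3 comparisons. The mitochondrial ornithine carrier Slc25a15 fell by 0.79, 0.93 and 0.73. Slc25a29, a mitochondrial carrier of basic amino acids, rose by 1.08, 1.59 and 0.96. Of 8 tested genes 2 rose and 3 fell in batch 1, and 1 rose and 4 fell in both comparisons of batch 2, with list medians of -0.63, -0.51 and -0.50.

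On the proline and glutamate arm, Aldh18a1 and Pycr1 fell and Aldh4a1 rose in all 3 comparisons. Aldh18a1, which makes the proline precursor from glutamate, fell from 136 ± 3.96 to 60.3 ± 12.3 CPM in batch 1 and, in batch 2, from 103 ± 6.42 to 29.3 ± 1.73 with adenosine and 41.5 ± 5.23 with AMP (SD, n = 3, largest edgeR adjusted p = 6.22e-05). Pycr1, which closes proline synthesis, fell by 1.79, 1.14 and 0.80 on the log2 scale. Aldh4a1, which oxidises the common intermediate to glutamate, rose by 1.5, 1.79 and 1.52. Prodh, proline dehydrogenase, fell by 0.68 with adenosine and 0.70 with AMP in batch 2. Of 6 genes, all tested, 1 rose and 2 fell in batch 1, 1 rose and 5 fell with adenosine in batch 2, and 1 rose and 4 fell with AMP. Pycrl, listed also as Pycr3, fell with adenosine in batch 2 (log2 -0.30), with 0.01 under scaling by library totals.

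Type I protein arginine methyltransferases make the dimethylarginines that Ddah enzymes clear once freed from protein. Of 6 listed genes, Prmt1 had no row under that name and was not analysed here, and 4 could be tested. Carm1 fell by 0.74 in batch 1 and 0.62 with adenosine in batch 2 on the log2 scale (edgeR adjusted p = 0.00243 and 0.00188). Prmt6 rose by 0.45 and 0.41 with adenosine and AMP in batch 2, a call lost with AMP without DMSO replicate 2 or AMP replicate 3. Prmt3 rose by 0.35 in batch 1, a call kept in 1 of 6 fits that left out a library (adjusted p from 0.0195 to 0.131). Thus 1 rose and 1 fell with adenosine in either batch, and 1 rose and 0 fell with AMP.

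Among the partners of polyamine synthesis, Azin1 fell and Oaz2 rose in all 3 comparisons. Azin1, the antizyme inhibitor that protects the decarboxylase, fell from 252 ± 32.4 to 134 ± 19.2 CPM in batch 1 and, in batch 2, from 350 ± 31.7 to 144 ± 15.9 with adenosine and 150 ± 10.8 with AMP (SD, n = 3, largest edgeR adjusted p = 0.000269). Oaz2, an antizyme, rose from 76.6 ± 4.99 to 131 ± 9.17 CPM in batch 1 and, in batch 2, from 52.1 ± 1.82 to 125 ± 8.19 and 102 ± 8.53. Oaz1, the more abundant antizyme of the pair by FPKM, named after its values were seen, was at 815 ± 75.1 CPM with DMSO and 756 ± 83.3 with adenosine in batch 1, which did not pass (log2 -0.11, adjusted p = 0.507). In batch 2 Oaz1 fell from 629 ± 29.2 to 540 ± 10 CPM with adenosine (log2 -0.22, edgeR adjusted p = 0.0142) and 513 ± 44.3 with AMP (log2 -0.29, adjusted p = 0.00251), calls that ended under scaling by library totals (0.09 and -0.03). The adenosine call was also lost without DMSO replicate 2 (highest adjusted p = 0.0709). Mat2a, which makes S-adenosylmethionine, fell by 0.50, 0.71 and 0.82. Azin2 rose with AMP (log2 1.40, adjusted p = 0.00646) and had 0.43 and 0.78 with adenosine, which did not pass. Amd1, S-adenosylmethionine decarboxylase, fell by 0.25 with adenosine and 0.53 with AMP in batch 2, the first of which is 0.06 under scaling by library totals. Its near-identical copy Amd2 fell by 0.84 with AMP, a call kept in 2 of 6 fits that left out a library, and reads of the pair may be split between them. Of 8 tested, 1 rose and 2 fell in batch 1, 1 rose and 5 fell with adenosine in batch 2, and 2 rose and 6 fell with AMP.

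Polyamine breakdown held both large rises and large falls. Smox, spermine oxidase, rose from 85.7 ± 20.3 to 132 ± 26.6 CPM in batch 1 (log2 0.62, edgeR adjusted p = 0.0161) and, in batch 2, from 18.3 ± 1.51 to 49.5 ± 1.77 with adenosine and 47.3 ± 6.48 with AMP (SD, n = 3, adjusted p = 3.34e-08 and 8.67e-08). The batch 1 call was lost without DMSO replicate 1, DMSO replicate 2 or adenosine replicate 1 (adjusted p up to 0.0996). Paox, which oxidises the acetylated polyamines made by Sat1, fell by 1.90, 1.95 and 1.91 on the log2 scale. Slc18b1, a vesicular polyamine transporter, fell by 1.51, 1.35 and 1.18. Sat2, a relative of Sat1, rose by 1.40 and 1.18 in batch 2, at 1.1 to 4.74 CPM, and the AMP call was lost without AMP replicate 2. Of 6 tested, 1 rose and 2 fell in batch 1, 3 rose and 3 fell with adenosine in batch 2, and 3 rose and 2 fell with AMP.

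Spermidine is also used to modify the translation factor eIF5A to its hypusine form. Eif5a fell from 3117 ± 95.6 to 2121 ± 89.6 CPM in batch 1 and, in batch 2, from 2585 ± 70.2 to 1513 ± 44.6 with adenosine and 1576 ± 91.5 with AMP (SD, n = 3, largest edgeR adjusted p = 0.000924). Its relative Eif5a2 fell by 0.48 with adenosine and 0.38 with AMP in batch 2, the latter call being lost without DMSO replicate 1 or AMP replicate 1. Of the modifying enzymes, Dhps fell by 0.33 and 0.24 in batch 2, the latter call being kept in 2 of 6 fits without 1 library and the difference being 0.02 under scaling by library totals, and Dohh rose by 0.27 with AMP, a call also lost without DMSO replicate 1 or AMP replicate 1. Of 4 tested, 0 rose and 1 fell in batch 1, 0 rose and 3 fell with adenosine in batch 2, and 1 rose and 3 fell with AMP.

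Methionine salvage recycles the methylthioadenosine released by spermidine and spermine synthesis. Mtap, its first enzyme, fell from 228 ± 22.9 to 129 ± 5.24 CPM in batch 1 and, in batch 2, from 355 ± 13 to 158 ± 12.9 with adenosine and 203 ± 11.3 with AMP (SD, n = 3, largest edgeR adjusted p = 0.000155). Mri1, the next isomerase, rose by 0.62, 0.98 and 1.10 on the log2 scale. Adi1, a later dioxygenase, fell by 0.88, 0.47 and 0.79, and Enoph1 fell by 0.47 and 0.50 in batch 2. Of 5 tested, 1 rose and 2 fell in batch 1, and 1 rose and 3 fell in both comparisons of batch 2.

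**Figure D5:**
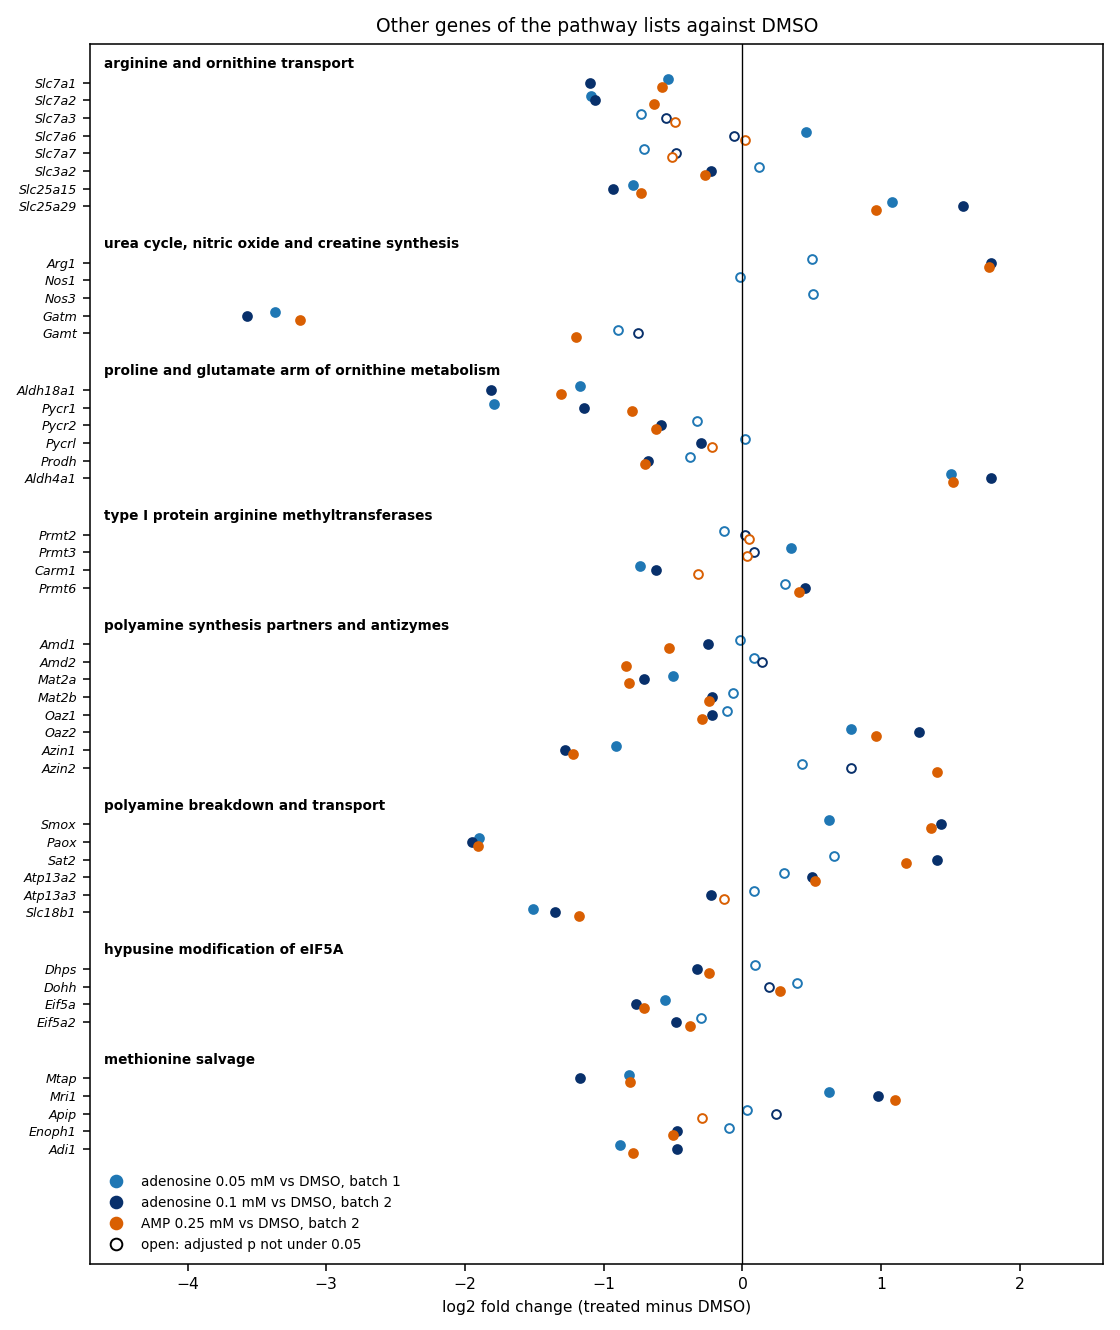
Log2 fold change against DMSO of the tested genes of the 8 pathway lists, for 0.05 mM adenosine (batch 1), 0.1 mM adenosine and 0.25 mM AMP (batch 2); filled points have adjusted p under 0.05 and open points do not. Gatm lies lowest, between -3.19 and -3.57, and Aldh4a1 and Arg1 reach 1.79 with adenosine in batch 2.

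Between AMP and adenosine, 3 of the 44 tested pathway genes rose and 4 fell, beside 4.52% higher and 2.00% lower of all 13063 genes. Slc7a1 (log2 0.51, edgeR adjusted p = 0.00712), Aldh18a1 (0.50, adjusted p = 0.00782) and Mtap (0.36, adjusted p = 0.00805) rose with AMP over adenosine. Slc25a29 (-0.63), Apip of methionine salvage (-0.53), Oaz2 (-0.30) and Amd1 (-0.28) fell, with adjusted p of 0.0368, 0.0425, 0.0342 and 0.0128. Calls of Slc25a29, Apip and Oaz2 were kept in 1, 2 and 2 of 6 fits without 1 library, and that of Slc7a1 was lost without adenosine replicate 3 (adjusted p = 0.0537). Under scaling by library totals the calls of Apip (-0.56) and Oaz2 (-0.34) also ended.

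Over the 15 libraries, with each log2 CPM (prior count 2) set against the DMSO mean of its batch, the genes most like Arg2 among 13049 were 4933434E20Rik (Pearson r = 0.994), Dusp1 (0.991), 3110056K07Rik (0.991), Gsto1 (0.990) and Gabarapl1 (0.989). Those most like Ass1 were Slc9a9 (0.996), Ncam1 (0.994), Pck2 (0.993), Sytl2 (0.992) and Pak1 (0.991). Among the 10 genes, Sat1 had r = 0.96 and Ddah2 -0.95 with Arg2, and Ass1 had -0.97, while Ddah1 had 0.01. These correlations are descriptions over points that share DMSO libraries and batches and that fall apart into treated and DMSO libraries.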

How the data were processed

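RNA was amplified by the Smart-Seq2 protocol and cut with Tn5, per the labels' protocols. The deposited counts are reads per gene from featureCounts 1.6.4, per the file header of batch 1. STAR and build mm10 are named in the submitters' processing notes. The deposited FPKM were made by the authors, and their formula is not given in the sources used here. In batch 2 the smallest total of a gene over 9 libraries is 101 reads, and 43 lines name no gene (0.0589% of counts) and were left out.

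Counts were tested with edgeR 4.0.16 (quasi-likelihood, TMM, filterByExpr by group) under R 4.3.3, two-sided, with Benjamini-Hochberg adjusted p under 0.05 over all genes tested. Batch 2 comparisons were fitted on its 9 libraries. CPM were computed from the deposited counts with TMM-scaled totals. Alternatives used DESeq2 1.42.0, limma 3.58.1 on log2(FPKM + 1) and log2(FPKM + 0.1), no filter, library totals, a replicate block and leaving out each library; 1 more, without the most abundant gene, was chosen after seeing the data. The fits were tested on simulated data. Members and lists were chosen with earlier results of these data known. Named were the 10 genes, Arg1 and the nitric oxide synthases, up to 4 genes of each list and comparison with the largest log2 difference among those called, and the 5 genes most like Arg2 and Ass1; Vti1b was added for its overlap, and Oaz1 and the cell type markers with values were chosen after seeing them. Replicate pairs differed by more than sampling noise (chi-square per degree of freedom 3.54 to 34.4 over 15 pairs). The authors' own fold changes were not used here.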

Additional observations from a re-analysis of the deposited data

Results flagged for a closer look

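The adenosine effect differed between batch 2 (0.1 mM) and batch 1 (0.05 mM), by the interaction term of the edgeR fit, for Ddah2 by -0.97 and for Srm by -0.73 on the log2 scale. Among the other pathway genes it differed for Slc7a1 (-0.55, adjusted p = 0.0283), Slc7a6 (-0.51, adjusted p = 0.0283), Aldh18a1 (-0.63, adjusted p = 0.0226), Oaz2 (0.50, adjusted p = 0.0174) and Smox (0.81, adjusted p = 0.026). Slc7a6, an amino acid exchanger, rose by 0.46 in batch 1 and had -0.06 in batch 2, which did not pass the test. When each of 12 libraries was left out in turn, Slc7a1 kept its call in 5 fits, Slc7a6 in 6, Aldh18a1 in 9 and Smox in 5, with highest adjusted p of 0.0836, 0.0932, 0.083 and 0.0653. Oaz2 kept its call in all 12. Batch and dose cannot be told apart in these differences. The calls of Slc7a1, Slc7a6 and Aldh18a1 were also lost under scaling by library totals, with log2 differences of -0.44, -0.41 and -0.52.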

How the results depend on the processing

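Over all alternatives, no called log2 difference of the 10 genes changed sign. Of 720 recomputed values 679 stayed within the replicate spread or on their side of the threshold, 24 of those without a test moved by more (18 under library totals without TMM, 6 with FPKM), and 8 tested ones lost and 9 gained a call. Between AMP and adenosine, 5 members and 7 pathway genes were called. With limma on log2(FPKM + 0.1) these were 3 and 4, and with only the 6 libraries compared 4 pathway genes were called; leaving out each library gave 4 to 6 members and 3 to 7 pathway genes. Over all genes this comparison had 851 calls, 594 with log2(FPKM + 1), 546 with log2(FPKM + 0.1), and 408 (without adenosine replicate 3) to 991 (without AMP replicate 3). For the difference between batches, 5 pathway genes were called, 3 under library totals, and 1 (without adenosine batch 1 replicate 3) to 8 (without adenosine batch 1 replicate 1) when libraries were left out; over all genes there were 1560, and 896 to 2064. The share of its calls that were higher moved from 52.6 to 75.8% under library totals. Leaving out libraries against DMSO gave 4 to 6, 8 to 9 and 8 to 9 members and 18 to 22, 31 to 33 and 31 to 33 pathway genes in the 3 comparisons. Over all genes these fits had 4326 to 4912, 8411 to 8633 and 7786 to 8310 calls. Leaving out the most abundant gene, an alternative chosen after seeing the data, changed none of the 10 counts of calls.

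Deviations of same-numbered libraries of different groups correlated at -0.03 to 0.09 in batch 1 and -0.07 to 0.30 in batch 2. Their median was 0.05 in batch 1 and 0.11 in batch 2, beside -0.03 and -0.07 for pairs of other numbers. The labels do not pair the libraries, and the main fits did not. With a replicate block 5, 9 and 10 members were called against DMSO, 6 between AMP and adenosine and 3 between batches, and 20, 35, 38, 7 and 6 pathway genes in the same order. Over all genes the block fits called 5004, 9239, 8742, 1159 and 1725 in that order, beside 5420, 9067, 8564, 851 and 1560 without a block. With the block Sat1 passed between AMP and adenosine (edgeR adjusted p = 0.0192), and Ddah1 between batches (adjusted p = 0.0272).

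Arg2 against DMSO rests on 3 to 12 reads per DMSO library; with FPKM its log2 difference was 4.97, 4.70 and 4.0 at a pseudocount of 1. The small differences of Asl, Odc1 and Sms, of Oat with adenosine in batch 2 and of Srm in batch 1 depended on the scaling. Oat with AMP was called under both scalings, at -0.83 with TMM and -0.56 with library totals. FPKM fits were not run across the batches, whose tables were normalized separately.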
